A study of Homo sapiens with 14 samples.

Results

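The genes described here are 35 genes of sterol and fatty acid synthesis among the 19923 genes of the count tables. They were chosen by name, with earlier results of these data known. RNA sequencing of 14 libraries measured them in SK-N-BE2, a long-established human line derived from neuroblastoma in which MYCN is amplified. All 35 were present in the tables and passed the filter on low counts in both batches. By role, 7 belong to the mevalonate arm, 3 to the step from squalene to lanosterol, 8 to the steps from lanosterol to cholesterol, 5 to the control of the sterol regulatory element-binding proteins (SREBP), 2 to sterol transport and uptake control, 3 to the liver X receptor (LXR) and efflux, and 7 to fatty acid synthesis. The study had 7 groups of 2 libraries in 2 labelled batches. In batch 1, cells with the genotype WT received H2O or CoCl2 at 10 µM or 50 µM. CoCl2 (cobalt chloride) mimics low oxygen by stabilising hypoxia-inducible factors. In batch 2, untreated cells were either WT or one of TET2KO 1, 2 and 3, labelled as lacking TET2, an enzyme that oxidises 5-methylcytosine in DNA. All groups grew in RPMI1640 with 10% heat-inactivated bovine serum, which carries lipoproteins. The time of exposure, the way the knockouts were made, and whether a knockout number is 1 clone were not given in the sources used here.

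Cells make cholesterol from acetyl-CoA by way of mevalonate, squalene and lanosterol, and make fatty acids from the same precursor through malonyl-CoA. When sterols in the endoplasmic reticulum are scarce, the escort protein SCAP carries SREBP to the Golgi, where it is cleaved to a transcription factor that switches on most of these enzymes. When sterols are plentiful, INSIG proteins hold SCAP back and oxysterols activate LXR, which raises the efflux pumps ABCA1 and ABCG1 and the ubiquitin ligase MYLIP.

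Libraries held 31214128 to 39540111 counts in batch 1 and 52095024 to 59263320 in batch 2. Batch 2 counts were mostly reads, with a pair counted 2 times, so levels are given as CPM, the gene's count scaled to a common library total after TMM normalization, and were compared within a batch only. The 9 adrenergic neuroblastoma markers reported here were at 34.9 CPM or more in every library. The 9 leukocyte, hepatocyte and adipocyte markers reached at most 0.320 CPM in any library, and of 3 epithelial markers KRT5 had 0 counts in all 14, KRT18 reached 1.66 CPM and EPCAM 2.65 CPM. The summed level of 6 mesenchymal markers was 594 to 617 CPM in WT, 194 to 204 in TET2KO 1, 262 to 269 in TET2KO 2 and 176 to 181 in TET2KO 3. The most abundant of these markers carried most of the drop, and not every marker was lower in each knockout. The part of this sum in the knockout results below was not tested. TET2 RNA stood at 64.8 and 70.8 CPM in WT, 76.6 and 80.4 in TET2KO 1, 87.4 and 91.1 in TET2KO 2 and 68.2 and 75.4 in TET2KO 3. The knockouts were thus not marked by a lower level, and TET2KO 2 had the highest. A deletion that leaves the transcript in place would not be seen this way. Whether replicates came from separate cultures was not stated, so p-values measure the spread between these libraries, which may be technical. In bulk RNA, fewer cells expressing a gene and less of its RNA per cell cannot be told apart.

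Promoter sequences are shown for 5 genes on which the results below turn: HMGCS1, DHCR7 and INSIG1, with large falls at 50 µM CoCl2 and in TET2KO 2; SREBF2, the member holding the sterol regulatory element searched for; and MYLIP, lower in each labelled knockout. Each is the 250 bases before the gene's start in RefSeq on GRCh38.p14, read 5′ to 3′ on the gene's strand. They lie at chr5:43313413-43313662 (minus strand), chr11:71448394-71448643 (minus), chr7:155297628-155297877 (plus), chr22:41832855-41833104 (plus) and chr6:16128836-16129085 (plus). Capitals mark CCAAT or its reverse complement ATTGG, the E-box CACGTG, and the sterol regulatory element TCACNCCAC.
HMGCS1: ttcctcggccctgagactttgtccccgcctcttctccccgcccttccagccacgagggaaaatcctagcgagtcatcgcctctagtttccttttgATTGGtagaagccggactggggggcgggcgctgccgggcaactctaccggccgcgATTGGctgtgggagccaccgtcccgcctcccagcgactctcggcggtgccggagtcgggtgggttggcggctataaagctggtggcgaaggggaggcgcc
DHCR7: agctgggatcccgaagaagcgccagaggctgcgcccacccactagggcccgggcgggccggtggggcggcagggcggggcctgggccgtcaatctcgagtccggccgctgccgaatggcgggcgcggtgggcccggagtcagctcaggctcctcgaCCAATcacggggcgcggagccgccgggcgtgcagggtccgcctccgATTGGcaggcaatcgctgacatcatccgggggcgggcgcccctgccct
INSIG1: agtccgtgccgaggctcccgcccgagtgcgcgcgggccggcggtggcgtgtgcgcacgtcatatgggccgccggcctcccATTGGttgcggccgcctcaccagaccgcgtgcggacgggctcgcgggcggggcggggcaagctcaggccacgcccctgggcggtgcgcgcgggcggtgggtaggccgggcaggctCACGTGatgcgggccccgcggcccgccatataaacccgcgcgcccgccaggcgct
SREBF2: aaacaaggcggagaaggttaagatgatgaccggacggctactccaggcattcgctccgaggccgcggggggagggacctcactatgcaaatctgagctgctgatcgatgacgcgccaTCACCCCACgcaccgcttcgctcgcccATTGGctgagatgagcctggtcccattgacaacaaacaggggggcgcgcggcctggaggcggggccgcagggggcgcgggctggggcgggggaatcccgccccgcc
MYLIP: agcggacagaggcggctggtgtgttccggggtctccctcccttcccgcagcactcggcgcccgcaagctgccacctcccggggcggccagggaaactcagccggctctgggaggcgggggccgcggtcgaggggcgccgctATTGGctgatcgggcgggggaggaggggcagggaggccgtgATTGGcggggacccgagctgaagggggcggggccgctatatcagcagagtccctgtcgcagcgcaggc

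RefSeq promoters, from 250 bases before to 50 after the start, were matched for 30 of the 35 members. None was matched for ACAT2, FDFT1, SQLE, ABCG1 and FASN. On either strand, CCAAT, the box bound by NF-Y, a usual partner of SREBP, was found in 18 of 30 (60%), against 36.4% of the 10842 tested genes with a promoter. GGGCGG, the core of a GC box, was found in 28 of 30 (93.3%), against 69.7%. CACGTG was found in 5 of 30 (16.7%; LSS, SC5D, SCAP, INSIG1 and ABCA1), against 9.99%. ACGTG, the core of the hypoxia response element, which also forms the last letters of the E-box, was found in 9 of 30 (30%), against 26.1%. TCACNCCAC was found in SREBF2 alone (3.33%), from 133 to 125 bases before the start, against 1.07%. These are matches of letters in a fixed window, and no other form of the sterol regulatory element was searched for. At 50 µM CoCl2 the median log2 fold change was -0.46 over the 18 members with CCAAT and -0.39 over the 12 without. In TET2KO 2 it was -0.54 and -0.37. These differences were not tested, and the members without a matched promoter are in neither set.

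Per kilobase of exon, the level in H2O was highest for SCD, the desaturase that makes monounsaturated fatty acids, at 308 CPM per kb. ACLY, which makes cytosolic acetyl-CoA, followed at 162, and FASN, the fatty acid synthase, at 104 CPM per kb. HMGCS1, which makes the HMG-CoA of the mevalonate arm, stood at 70.4 and SREBF2, which encodes SREBP-2, at 69.5 CPM per kb. The lowest was ABCA1, at 0.299 CPM per kb. The 35 levels had a median of 21.1 CPM per kb, and 4 pairs of neighbours in that order overlapped between their libraries. In WT the median was 17.9 CPM per kb and 10 such pairs overlapped.

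At 50 µM CoCl2, 31 of the 35 genes fell against H2O and none rose, with a median log2 fold change of -0.44. Among all 13636 genes tested, 61.4% were called at an adjusted p under 0.05, 31.1% as lower, and the median was 0.00. Most genes were called at this dose, so the members were also counted by size. By at least 0.5 on the log2 scale, 16 of them fell, against 6.6% of all genes. The members were chosen with earlier results known, so these shares describe the list and do not test it. The groups did not overlap in CPM for 78.5% of all genes tested, so a lack of overlap below does not set a member apart. The summed level of the 35 was 7871 and 7842 CPM in the H2O libraries and 5783 and 5802 at 50 µM. MYCN, amplified in this line, moved the same way, from 5231 to 5252 CPM in H2O to 4497 to 4500 CPM at 50 µM, and its part in the result was not tested. Adjusted p-values are from edgeR's quasi-likelihood test, corrected over all genes by the Benjamini-Hochberg method, and errors are standard errors of the log2 fold change.

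All 7 genes of the mevalonate arm fell. HMGCS1 had the largest change of any member, with 468 and 465 CPM in H2O and 228 and 225 CPM at 50 µM (log2 -1.04 ± 0.02, adjusted p = 5.7e-106). The mean level fell by 51.4%, and the groups lay far apart. ACAT2, a cytosolic thiolase that makes acetoacetyl-CoA, went from 87.3 and 91.02 to 50.6 and 50.96 CPM (log2 -0.81 ± 0.03, adjusted p = 1.29e-54), again with no overlap, but its exons overlap those of SOD2 and TCP1 on the other strand, and reads were counted without strand. The mevalonate kinase MVK (log2 -0.61), the decarboxylase MVD (-0.55), the prenyl synthase FDPS (-0.54) and the isomerase IDI1 (-0.44) fell by less. PMVK, the second kinase of the arm, barely passed (log2 -0.10 ± 0.04, adjusted p = 0.0419), and its call was lost in 6 of 12 alternative settings. MVK shares exon sequence with MMAB on the other strand.

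FDFT1, the squalene synthase and the first enzyme committed to sterols, had 257 and 255 CPM in H2O and 161 and 165 at 50 µM (log2 -0.65 ± 0.02, adjusted p = 6.24e-67). SQLE, the squalene epoxidase and a rate-limiting step, had 238 and 245 CPM in H2O and 178 in both libraries at 50 µM (log2 -0.44 ± 0.02, adjusted p = 2.46e-45). In both genes every treated library was below every control. LSS, which closes the sterol rings, changed by -0.39.

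Of the 8 genes from lanosterol to cholesterol, 7 fell. DHCR7, which makes cholesterol from 7-dehydrocholesterol, had 149.6 and 143 CPM in H2O and 83.1 and 86.4 at 50 µM (log2 -0.79 ± 0.03, adjusted p = 1.12e-63). MSMO1, the C4 methyl sterol oxidase, went from 165 and 168 to 99.8 and 101 CPM (log2 -0.73 ± 0.03, adjusted p = 2.98e-63). Neither gene's groups overlapped. HSD17B7, a sterol ketoreductase, was low, at 11.01 and 10.9 CPM in H2O and 7.17 and 6.86 at 50 µM (log2 -0.64 ± 0.09, adjusted p = 3.34e-11). Smaller falls were those of CYP51A1, the lanosterol demethylase (-0.35), NSDHL (-0.35), EBP (-0.17) and SC5D (-0.15). TM7SF2, a sterol reductase, was not called (log2 -0.10 ± 0.06, adjusted p = 0.122); it shares exon sequence with VPS51 and ZNHIT2, and CYP51A1 and EBP also overlap other annotated genes.

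Of the 5 genes of SREBP control, 3 fell. INSIG1, itself a target of SREBP, had 77.03 and 76.9 CPM in H2O and 48.2 and 49.1 at 50 µM (log2 -0.66 ± 0.03, adjusted p = 3.81e-42), with no overlap. INSIG2, its relative, had 47.96 and 51.5 CPM in H2O and 49.5 and 46.5 at 50 µM (log2 -0.05 ± 0.04, adjusted p = 0.225), and its groups overlapped; the difference between the 2 INSIG genes was not tested. SREBF1, the gene of the SREBP-1 proteins that favour fatty acid enzymes, went from 76.7 and 78.3 to 51.7 and 50.96 CPM (log2 -0.60 ± 0.03, adjusted p = 7.65e-38); its exons overlap RAI1 on the other strand. SREBF2 went from 527 and 523 to 450.2 and 454 CPM (log2 -0.22 ± 0.02, adjusted p = 2.62e-25). Both transcription factor genes were lower in each treated library, and the difference between them was not tested. SCAP was not called (log2 -0.04 ± 0.03, adjusted p = 0.248).

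STARD4, a carrier of cholesterol between membranes, changed by -0.44, and MYLIP, which marks lipoprotein receptors for breakdown, by -0.34. The efflux pumps fell with the enzymes. ABCG1 had 35.4 and 34.9 CPM in H2O and 23.7 and 23.4 at 50 µM (log2 -0.58 ± 0.05, adjusted p = 5.69e-23). ABCA1 was the lowest member and fell from 3.5 and 3.23 to 1.86 and 1.65 CPM (log2 -0.94 ± 0.17, adjusted p = 2.63e-07). Neither pump's groups overlapped. NR1H2, the gene of LXR beta, was the one member with a positive value, and it was not called (log2 0.05 ± 0.07, adjusted p = 0.544).

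All 7 genes of fatty acid synthesis fell, from -0.19 for FADS1, a desaturase of polyunsaturated fatty acids, to -0.59 for the elongase ELOVL6. SCD had 1615 and 1613 CPM in H2O and 1164 and 1146 at 50 µM (log2 -0.48 ± 0.01, adjusted p = 7.84e-76). FASN had 979.8 and 966 CPM in H2O and 755 and 777 at 50 µM (log2 -0.34 ± 0.02, adjusted p = 1.85e-51). The 7 genes together, which include the most abundant members, went from 4625 and 4604 to 3494 and 3496 CPM. FADS2 (-0.57), ACACA, the acetyl-CoA carboxylase (-0.51), and ACLY (-0.24) lay between. FADS1 and FADS2 overlap each other on opposite strands, and FADS2 overlaps FEN1.

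**Figure D1:**
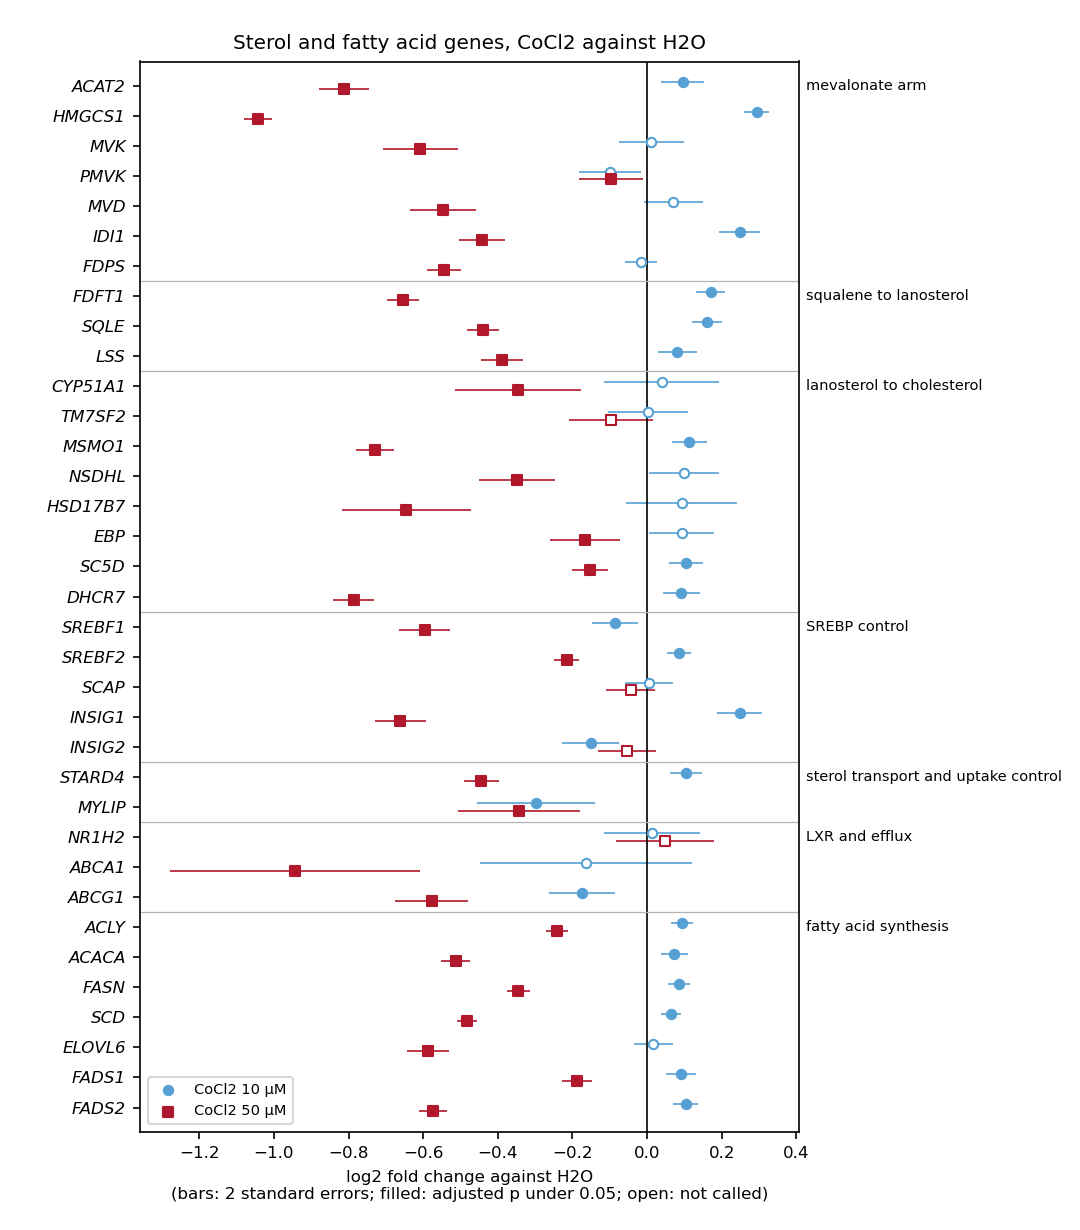
Log2 fold change against H2O (x axis) of each of the 35 genes (y axis, grouped by role) at 10 µM CoCl2 (blue circles) and 50 µM CoCl2 (red squares); bars are 2 standard errors and open symbols did not reach an adjusted p under 0.05. At 50 µM 31 genes lie to the left of 0 as called, led by HMGCS1 at -1.04, while 18 of the 10 µM values are called to the right of 0, none beyond 0.29.

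The lower dose gave small changes, mostly upward. At 10 µM CoCl2, 18 of the 35 genes rose against H2O and 4 fell, with a median of 0.09, where 22.7% of all genes were called, 11.6% as higher and 11.1% as lower. HMGCS1 had 468 and 465 CPM in H2O and 573 and 572 at 10 µM (log2 0.29 ± 0.02, adjusted p = 5.99e-37). INSIG1 had 92.5 and 90.4 CPM at 10 µM (log2 0.25 ± 0.03, adjusted p = 2.84e-12), above both H2O libraries. The groups did not overlap in CPM for 58.5% of all genes tested. IDI1 (0.25), FDFT1 (0.17) and SQLE (0.16, at 271 and 270.1 CPM) rose too. SREBF2 reached 555 and 559 CPM (log2 0.09 ± 0.02, adjusted p = 1.29e-05), SCD 1686 and 1691 CPM (log2 0.06 ± 0.01, adjusted p = 6.3e-05) and FASN 1031 and 1033 CPM (log2 0.09 ± 0.01, adjusted p = 1.01e-06). When all 14 libraries shared 1 fit, 10 of the 18 rises were called, and those of SREBF2 (adjusted p = 0.0706) and SCD (adjusted p = 0.0689) were lost. In that fit 796 of 14493 genes were called, higher or lower. MYCN was also higher, at 5562 to 5577 CPM, and its part was not tested.

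The 4 genes that fell at 10 µM were MYLIP, ABCG1, INSIG2 and SREBF1. As a share of the 35, these 4 were close to the 11.1% of all genes called lower at this dose. INSIG1 and SREBF2, of the same families as the last 2, were among those that rose, and the differences within the families were not tested. MYLIP had 11.04 and 10.6 CPM in H2O and 9 and 8.64 at 10 µM (log2 -0.30 ± 0.08, adjusted p = 0.00229). ABCG1 had 31.5 and 30.9 CPM (log2 -0.17 ± 0.04, adjusted p = 0.00131), INSIG2 44.97 and 44.6 CPM (log2 -0.15 ± 0.04, adjusted p = 0.00129) and SREBF1 73.6 and 72.5 CPM (log2 -0.09 ± 0.03, adjusted p = 0.0293). DESeq2 called 15 members at 10 µM and 1066 of 11471 genes, against 3098 of 13636 genes in the main fit. A fit of all 14 libraries called 10 members and 796 of 14493 genes. All 4 calls of lower genes were lost in both. Those of SREBF1, INSIG2 and MYLIP were also lost without, respectively, any 1 of the 4 libraries, H2O replicate 2, and 10 µM replicate 2. ABCA1, at 2.48 and 3.47 CPM, was not called (log2 -0.16 ± 0.14, adjusted p = 0.45).

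Between the doses, 29 of the 35 genes were lower at 50 than at 10 µM and 1, INSIG2, was higher (log2 0.10 ± 0.04, adjusted p = 0.0321; lost in 6 of 12 alternative settings), where 52.8% of all genes were called, 26.5% as lower and 26.2% as higher. The median was -0.53. HMGCS1 differed most (log2 -1.34 ± 0.02, adjusted p = 1.57e-123), followed by ACAT2 (-0.91), INSIG1 (-0.91) and DHCR7 (-0.88). MYLIP was not called between the doses (log2 -0.05 ± 0.09, adjusted p = 0.69), and neither were PMVK (0.00), TM7SF2 (-0.10), SCAP (-0.05) or NR1H2 (0.03). The comparisons with H2O share its libraries, so their values are set side by side and not correlated.

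**Figure D2:**
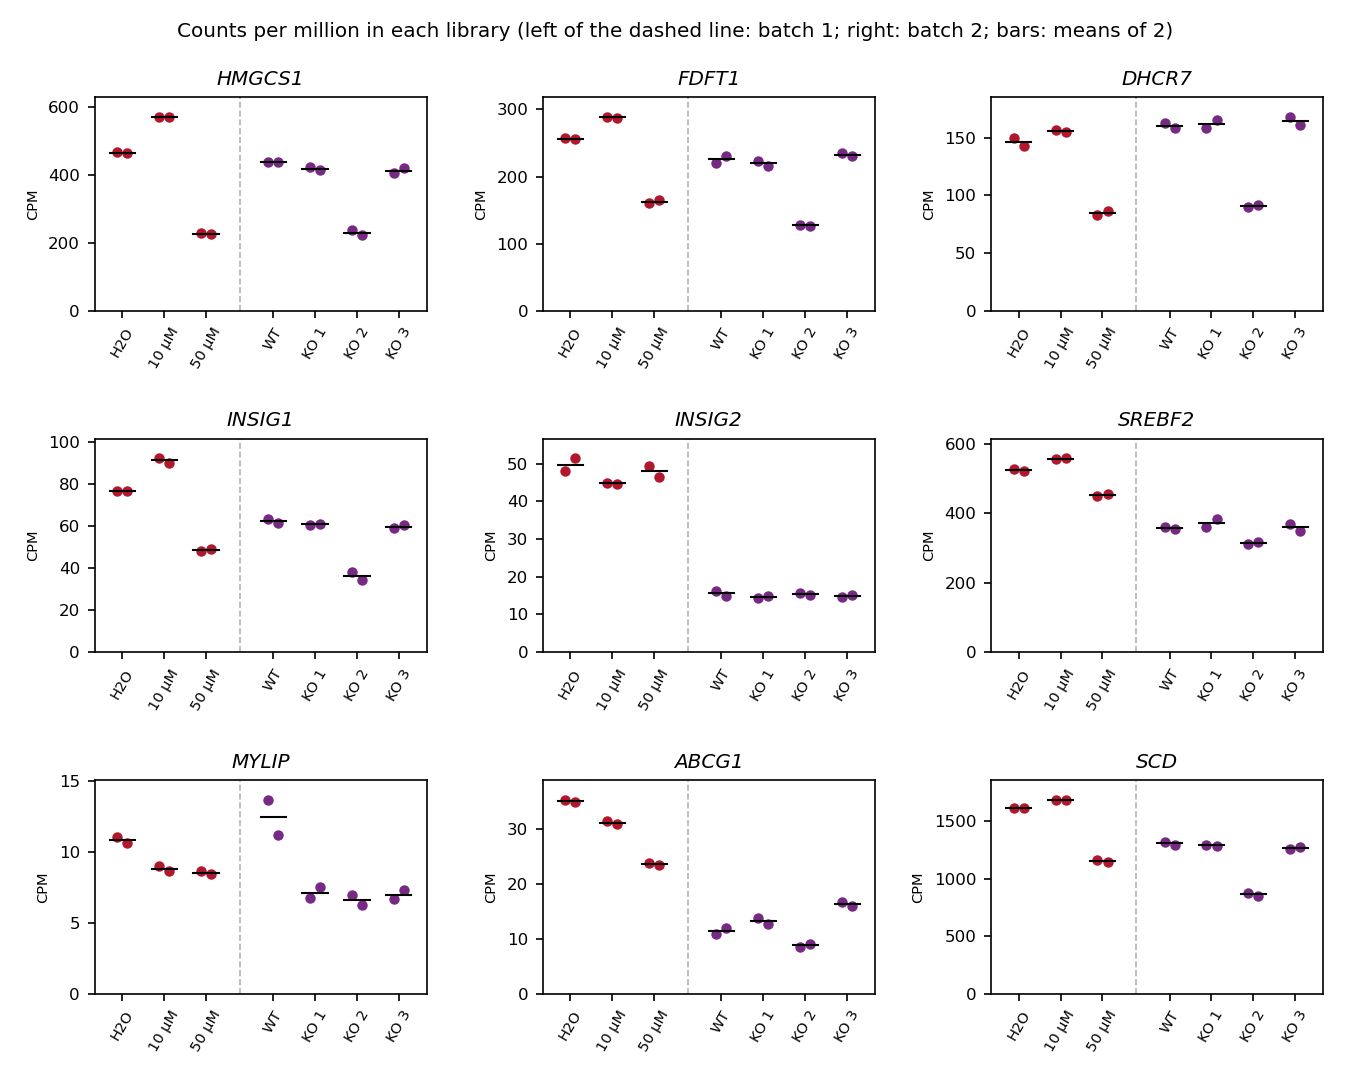
CPM (y axis, from 0) of 9 of the 35 genes in each library (points), by group (x axis), with the mean of 2 libraries as a bar; the dashed line separates the batches, which are not compared. HMGCS1, FDFT1, DHCR7, INSIG1 and SCD are lowest at 50 µM CoCl2 in batch 1 and in TET2KO 2 in batch 2, INSIG2 shows no such dip, and MYLIP is below WT in all 3 labelled knockouts.

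In the average of the 3 labelled knockouts against WT, 24 genes fell and 1, PMVK, rose (log2 0.13 ± 0.05, adjusted p = 0.0475; lost in 11 of 16 alternative settings), with a median of -0.15, where 18.9% of all 14061 genes tested were called, 11.4% as lower and 7.54% as higher. The 3 labelled knockouts entered that average with equal weight but differed in how many members were called. In TET2KO 2, 31 of 35 genes fell and none rose, with a median of -0.43, against 26.3% called and 14.3% lower among all genes. In TET2KO 1, 6 fell and 2 rose (17.5% of all genes called, 9.72% lower and 7.79% higher), and in TET2KO 3, 5 fell and 5 rose (18.9% of all genes called, 9.96% lower and 8.9% higher). When the 6 knockout libraries shared 1 coefficient, which counts the spread between knockouts as error, 2 members stayed called, MYLIP and SC5D. In that fit 256 of all 14061 genes were called, against 2656 in the main fit. Without WT replicate 1 or either TET2KO 1 library, fewer members were called in TET2KO 1. Without TET2KO 3 replicate 1, fewer were called in TET2KO 3. Fewer of all genes tested were called in these fits too. With any 1 library left out, the members' median ran from -0.03849 to -0.02607 in TET2KO 1. In TET2KO 3 it ran from -0.02773 to 0.01492. These comparisons share the WT libraries. All 6 knockout libraries lay on the same side of both WT libraries in CPM for 17% of all genes tested. TET2KO 2 alone did not overlap WT for 60.7% of them.

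The 3 labelled knockouts differed from each other in 28 of the 35 genes, where 37.6% of all genes did. In all 28 the lowest value was that of TET2KO 2. A contrast with the mean of TET2KO 1 and 3 was added after the values were seen. In it TET2KO 2 was lower in 28 and higher in none, with a median of -0.44 (35.2% of all genes called, 17.4% as lower). The call of FADS1 in this contrast was lost without either TET2KO 2 library. Its mean was 267 CPM in TET2KO 2, 272 in TET2KO 3 and 295 in TET2KO 1. The summed level of the members was 8538 and 8461 CPM in WT, 8413 and 8528 in TET2KO 1, 6338 and 6412 in TET2KO 2 and 8401 and 8348 in TET2KO 3. MYCN was likewise lowest in TET2KO 2, at 4600 to 4679 CPM in WT, 4548 to 4594 in TET2KO 1, 2815 to 2837 in TET2KO 2 and 4700 to 4715 in TET2KO 3, and its part in the result was not tested.

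In TET2KO 2 the mevalonate arm was again led by HMGCS1, with 437 and 438 CPM in WT and 238 and 222 in TET2KO 2 (log2 -0.93 ± 0.03, adjusted p = 7.97e-70). Its levels were 423 and 415 CPM in TET2KO 1 and 406 and 420.0 in TET2KO 3, neither called (adjusted p = 0.189 and 0.0528). MVK went from 36.9 and 43.8 CPM in WT to 26.3 and 25.2 in TET2KO 2 (log2 -0.65 ± 0.07, adjusted p = 1.07e-15). MVK also fell in TET2KO 1, at 29.9 and 32.9 CPM (log2 -0.36 ± 0.07, adjusted p = 5.11e-06), and not in TET2KO 3, at 39.6 and 37.6 CPM (log2 -0.06 ± 0.06, adjusted p = 0.559). The WT libraries lay apart, and without WT replicate 2 the value in TET2KO 1 was -0.23 (adjusted p = 0.0405). MVD (-0.60), ACAT2 (-0.56), IDI1 (-0.45) and FDPS (-0.45) fell in TET2KO 2, and ACAT2 fell in TET2KO 1 as well (-0.13). In TET2KO 3, FDPS (0.13) and PMVK (0.22) rose. The call of ACAT2 in TET2KO 1 was lost without any 1 of the 4 libraries, and that of PMVK without TET2KO 3 replicate 1.

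FDFT1 had 220.4 and 231 CPM in WT, 223 and 216 in TET2KO 1, 128 and 127 in TET2KO 2 and 235 and 231 in TET2KO 3. The TET2KO 2 libraries stood far below the others (log2 -0.83 ± 0.04, adjusted p = 3.1e-53), which ranged from 216 to 235 CPM. SQLE had 243 and 246 CPM in WT and 187 and 185 in TET2KO 2 (log2 -0.39 ± 0.04, adjusted p = 4.82e-20), against 244 and 240.0 in TET2KO 1 and 231 and 241 in TET2KO 3. LSS changed by -0.48 in TET2KO 2.

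In the later sterol steps, DHCR7 had 162 and 159 CPM in WT and 89.5 and 91.4 in TET2KO 2 (log2 -0.83 ± 0.04, adjusted p = 2.2e-47). It stood at 158 and 165 CPM in TET2KO 1 and 168 and 161 in TET2KO 3, close to WT. HSD17B7 went from 21.4 and 21.1 CPM in WT to 12.1 and 11.4 in TET2KO 2 (log2 -0.86 ± 0.09, adjusted p = 3.55e-16). HSD17B7 was lower in TET2KO 3 too, at 18.01 and 18.2 CPM (log2 -0.23 ± 0.08, adjusted p = 0.0361), and stood at 18.4 and 19.1 CPM in TET2KO 1 (adjusted p = 0.121). MSMO1 went from 118 and 115 CPM in WT to 72.5 and 69.9 in TET2KO 2 (log2 -0.71 ± 0.05, adjusted p = 1.37e-34), with 112 and 113 in TET2KO 1 and 108 and 111 in TET2KO 3. EBP, the sterol isomerase, fell in TET2KO 2 (-0.28) and rose in TET2KO 3 (0.27). In TET2KO 3 the call of HSD17B7 was lost without any 1 of the 4 libraries, and that of EBP without WT replicate 1 or TET2KO 3 replicate 1.

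SC5D, the sterol C5 desaturase, departed from this pattern. It had 114 and 109 CPM in WT, 95.8 and 91.4 in TET2KO 1, 96.3 in both libraries in TET2KO 2 and 98 and 94.9 in TET2KO 3. All 6 knockout libraries were below both WT libraries, with log2 fold changes of -0.25, -0.21 and -0.21, and no difference among the 3 was called (adjusted p = 0.659).

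Among the regulators, INSIG1 had 63.6 and 61.5 CPM in WT, 60.4 and 61.3 in TET2KO 1, 38.1 and 34.5 in TET2KO 2 and 59.2 and 60.4 in TET2KO 3. TET2KO 2 lay below all others (log2 -0.78 ± 0.06, adjusted p = 1.39e-28). INSIG2 had 16.3 and 15 CPM in WT and 15.7 and 15.1 in TET2KO 2 (log2 -0.02 ± 0.09, adjusted p = 0.897), with 14.5 and 14.9 in TET2KO 1 and 14.6 and 15.1 in TET2KO 3, and was called in none of the 3. SREBF1 had 114 and 112 CPM in WT and 79.2 and 79.9 in TET2KO 2 (log2 -0.51 ± 0.05, adjusted p = 9.41e-21), against 104 and 114 in TET2KO 1 and 123 and 121 in TET2KO 3. SREBF2 had 359.6 and 356 CPM in WT and 311 and 318 in TET2KO 2 (log2 -0.19 ± 0.03, adjusted p = 1.9e-06), against 359 and 383 in TET2KO 1 and 369.8 and 349.7 in TET2KO 3. Both factor genes were lowest in TET2KO 2. SCAP fell in TET2KO 2 (-0.17) and rose in TET2KO 1 (0.17) and TET2KO 3 (0.14). Each of these 3 calls of SCAP was lost without 1 or another library, that in TET2KO 3 in 8 of 15 alternative settings.

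MYLIP gave the largest fall shared by the 3 labelled knockouts. It had 13.7 and 11.2 CPM in WT, 6.75 and 7.52 in TET2KO 1, 6.98 and 6.24 in TET2KO 2 and 6.66 and 7.31 in TET2KO 3. Every knockout library was below both WT libraries, which themselves lay apart, with log2 fold changes of -0.80 ± 0.12, -0.91 ± 0.12 and -0.84 ± 0.12. No difference among the 3 was called (adjusted p = 0.784). Its call in the average (log2 -0.85 ± 0.09, adjusted p = 3.47e-15) held in all 16 alternative settings. STARD4 fell in TET2KO 2 (-0.24) and rose in TET2KO 1 (0.13), the latter not without TET2KO 1 replicate 1.

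ABCG1, the efflux pump, had 10.9 and 11.98 CPM in WT, 13.9 and 12.7 in TET2KO 1, 8.56 and 9.01 in TET2KO 2 and 16.8 and 16.05 in TET2KO 3. It fell in TET2KO 2 (log2 -0.38 ± 0.11, adjusted p = 0.00517) and rose in TET2KO 3 (log2 0.52 ± 0.10, adjusted p = 5.27e-06), and the spread of 0.90 among the 3 was the widest of any member. ABCA1 had 8.48 and 7.78 CPM in WT and 6.88 and 6.04, 6.01 and 6.33 and 6.77 and 7.06 in TET2KO 1, 2 and 3, all below WT. It was called in TET2KO 2 (log2 -0.40 ± 0.13, adjusted p = 0.0147) and in the average (log2 -0.32 ± 0.11, adjusted p = 0.0175). Both calls were lost without WT replicate 1. That in TET2KO 2 was also lost without TET2KO 2 replicate 1, and that in the average with DESeq2. The call of ABCG1 in TET2KO 2 was lost without WT replicate 2 or TET2KO 2 replicate 1. NR1H2, which overlaps NAPSA on the other strand, was called in none of the 3.

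All 7 genes of fatty acid synthesis fell in TET2KO 2. SCD had 1325 and 1293 CPM in WT and 875 and 853 in TET2KO 2 (log2 -0.60 ± 0.03, adjusted p = 1.12e-51), against 1298 and 1288 in TET2KO 1 and 1258 and 1282 in TET2KO 3. FASN had 1679 and 1645 CPM in WT and 1239 and 1309.9 in TET2KO 2 (log2 -0.38 ± 0.03, adjusted p = 1.79e-28), against 1624 and 1711 in TET2KO 1 and 1608 and 1575 in TET2KO 3. Only the TET2KO 2 libraries were called for these 2 genes. ELOVL6 (-0.63), FADS2 (-0.41), FADS1 (-0.18) and ACLY (-0.17) fell in TET2KO 2 as well. FADS1 was also lower in TET2KO 3 (log2 -0.16 ± 0.03, adjusted p = 0.00015), and ELOVL6 in TET2KO 1 (log2 -0.13 ± 0.04, adjusted p = 0.0196), the latter not without WT replicate 1, WT replicate 2 or TET2KO 1 replicate 2 (log2 -0.07 without the last). ACACA was called lower in TET2KO 1 (-0.10), TET2KO 2 (-0.34) and TET2KO 3 (-0.20), with the 3 differing in size (adjusted p = 2.22e-08). In TET2KO 1 its call was lost without WT replicate 1 or either TET2KO 1 library.

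**Figure D3:**
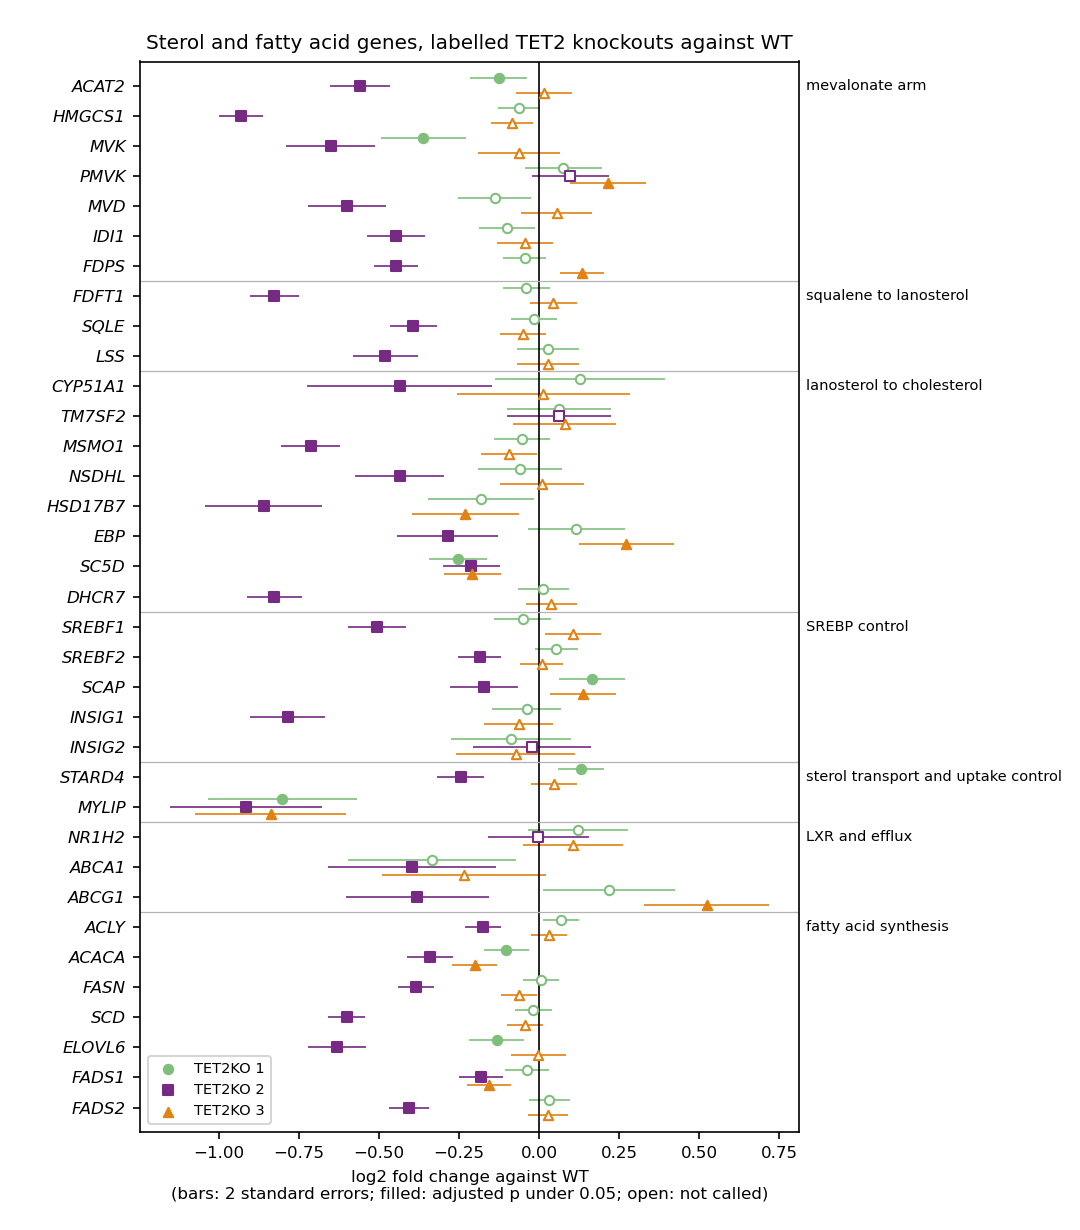
Log2 fold change against WT (x axis) of each of the 35 genes (y axis, grouped by role) in TET2KO 1 (green circles), TET2KO 2 (purple squares) and TET2KO 3 (orange triangles); bars are 2 standard errors and open symbols did not reach an adjusted p under 0.05. The TET2KO 2 values lie left of the other 2 for most genes, down to -0.93 for HMGCS1, while MYLIP and SC5D lie together in all 3.

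The comparisons of 50 µM CoCl2 with H2O and of TET2KO 2 with WT share no library, so their values can be set against each other. Of the 35 genes, 30 were called lower in both (85.7%), against 8.09% of the 13373 genes tested in both. In each comparison 31 of the 35 were called lower and none higher. Most of that overlap was therefore fixed by these counts, and no opposite call could occur. The overlaps given below for TET2KO 1 and 3 are bound in the same way by the 31 genes lower at 50 µM. Across the 35 genes, the log2 fold changes had a Pearson r of 0.779 and a Spearman rho of 0.786, against 0.322 and 0.293 across all genes. Genes are not independent replicates, and these coefficients describe 2 pairs of groups only. Against the same cobalt comparison, TET2KO 1 had 6 of the 35 genes lower in both (17.1%, against 3.84% of all genes). Opposite calls were made for 1 of the 35, and for 739 of the 13373 genes. The r was 0.263, against 0.0236 across all genes. TET2KO 3 had 5 lower in both (14.3%, against 3.38%). Opposite calls were made for 4 of the 35, and for 974 of the 13373 genes. The r was 0.12, against -0.0749. MYLIP was lower by more in TET2KO 2 (-0.91) than at 50 µM (-0.34), and ABCA1 by less (-0.40 and -0.94). The difference between the comparisons was not tested, since the batches were counted differently.

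**Figure D4:**
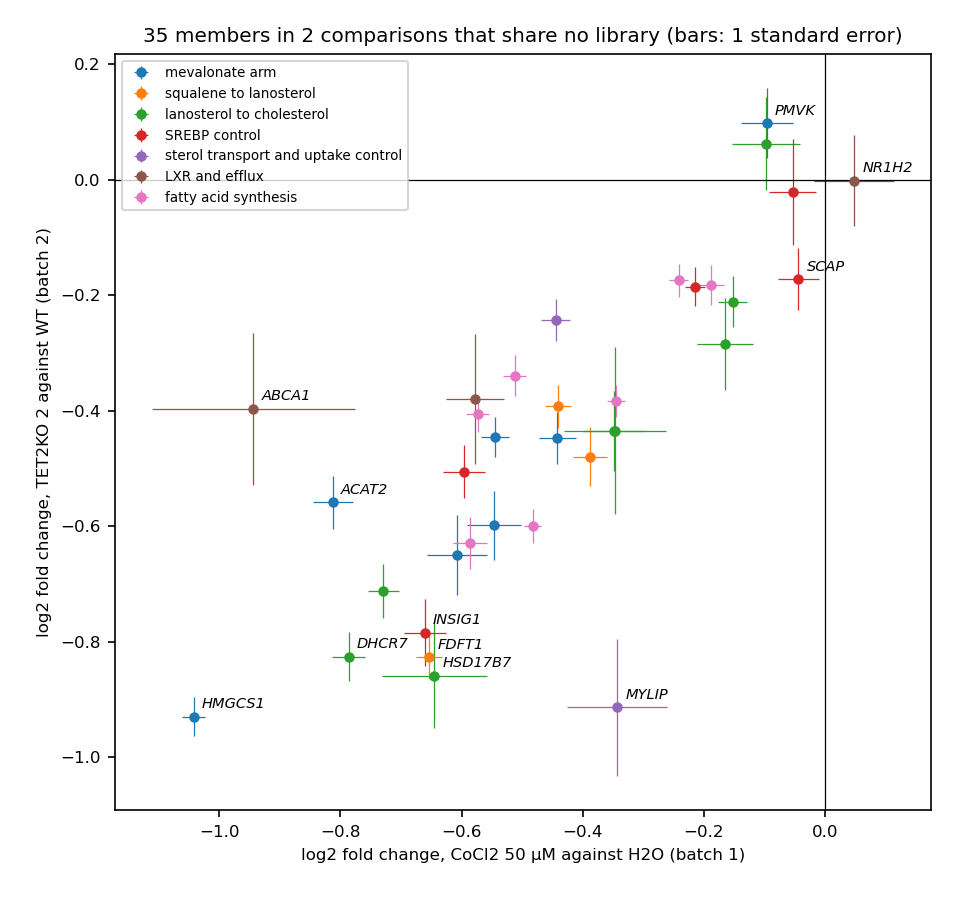
Log2 fold change at 50 µM CoCl2 against H2O (x axis) and in TET2KO 2 against WT (y axis) for the 35 genes, coloured by role; bars are 1 standard error. Most genes lie in the lower left, from SCAP near -0.04 and -0.17 to HMGCS1 at -1.04 and -0.93, with MYLIP and ABCA1 to either side.

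Other genes of these pathways, in lists also chosen with earlier results known, gave smaller medians. Of 27 further sterol pathway genes, 25 were tested at 50 µM, of which 12 fell and 6 rose, with a median of -0.05. Of 31 further fatty acid and lipid genes, 29 were tested, of which 18 fell and 5 rose, with a median of -0.16. Among all genes at this dose 31.1% were lower and 30.4% higher. ELOVL7, a fatty acid elongase, was low, at 0.537 and 0.5799 CPM in H2O and 1.06 and 1.04 at 50 µM (log2 0.90 ± 0.29, adjusted p = 0.00457). NPC2, the lysosomal cholesterol carrier, had 2.84 and 2.72 and 4.897 and 4.23 CPM (log2 0.71 ± 0.14, adjusted p = 2.16e-06). ACSL3, which activates fatty acids, went from 141 and 148 to 95.8 and 90 CPM (log2 -0.64 ± 0.03, adjusted p = 1.84e-52), and AGPAT2, an acyltransferase of glycerolipid synthesis, from 16.4 and 16.6 to 10.1 and 12.1 CPM (log2 -0.56 ± 0.07, adjusted p = 1.49e-12).

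In the knockout average, 5 of the 25 tested sterol pathway genes fell and 1 rose (median -0.01), and 3 of 30 fatty acid and lipid genes fell and 4 rose (median -0.01), against 11.4% lower and 7.54% higher among all genes. The desaturase SCD5 was higher (log2 0.19 ± 0.07, adjusted p = 0.0355) and the phosphatase LPIN1 lower (log2 -0.17 ± 0.03, adjusted p = 7.2e-06). ELOVL2, another elongase, had 0 counts in both WT libraries and 4 to 16 counts in the 6 others, too few for a fold.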

How the data were processed

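TRIzol RNA went into strand-specific libraries primed with oligo-dT, per the labels' protocols. Per the submitters' processing notes, Trimmomatic 0.36, STAR 2.6.1d and Subread 1.5.3 were used with GRCh38. The authors deposited unnormalised counts for each gene name, made with featureCounts (1.5.3 in batch 1, 2.0.5 in batch 2) from GENCODE 33 protein-coding exons, paired-end and with no strand option, per the file headers. Even numbers made up 39.0% to 42.3% of the counts from 1 to 10 in batch 1 and 77.3% to 80.5% in batch 2, so batch 2 mostly counted both reads of a pair.

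Each batch was fitted separately in R 4.3.3 with edgeR 4.0.16 (filterByExpr, TMM, glmQLFit with robust estimation, glmQLFTest), 13636 genes in batch 1 and 14061 in batch 2, with calls at 0.05 after Benjamini-Hochberg adjustment. The edgeR dispersion was held just above 1e-04 in batch 1, where the estimate was 7.66e-05. The fit was also run on simulated data whose dispersion was above the estimates of both batches, so the held value of batch 1 may not have been examined there. DESeq2 1.42.0 was an alternative, as were other scalings and filters, a replicate block, 1 fit of all libraries, halved batch 2 counts and leaving out each library. Replicate pairs differed by more than counting noise (chi-square per gene 1.23 to 1.46 in batch 1 and, with counts halved, 1.93 to 2.76 in batch 2, genes under a summed count of 20 left out), so each was counted. The members and gene lists were chosen with earlier results of these data known. All 35 members may be named; per-library values are given for called members with an absolute log2 change of at least 0.3 among the 8 largest of a comparison, for 9 members always (SREBF1, SREBF2, INSIG1, INSIG2, SQLE, SCD, FASN, ABCA1 and ABCG1), and for SC5D and others chosen after their values were seen. A few genes of the marker and pathway lists are not reported here.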

Additional observations from a re-analysis of the deposited data

Results flagged for a closer look

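In 28 of the 35 genes TET2KO 1, 2 and 3 did not share 1 level (edgeR's quasi-likelihood test of the difference, adjusted p under 0.05), and these genes are given here with the largest minus the smallest of their 3 log2 fold changes against WT. The widest spread was 0.90 for ABCG1. In the mevalonate arm, the spread was 0.87 for HMGCS1, 0.65 for MVD, 0.59 for MVK, 0.58 for FDPS, 0.57 for ACAT2 and 0.40 for IDI1. From squalene to lanosterol, the spread was 0.87 for FDFT1, 0.51 for LSS and 0.38 for SQLE. From lanosterol to cholesterol, the spread was 0.86 for DHCR7, 0.68 for HSD17B7, 0.66 for MSMO1, 0.56 for CYP51A1, 0.56 for EBP and 0.44 for NSDHL. Among regulators and carriers, the spread was 0.75 for INSIG1, 0.61 for SREBF1, 0.37 for STARD4, 0.34 for SCAP and 0.24 for SREBF2. In fatty acid synthesis, the spread was 0.63 for ELOVL6, 0.58 for SCD, 0.44 for FADS2, 0.39 for FASN, 0.24 for ACLY, 0.24 for ACACA and 0.14 for FADS1. The lowest of the 3 values was that of TET2KO 2 in all 28 genes.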

How the results depend on the processing

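Of 4445 member results recomputed under alternatives, 4301 kept their side of the threshold, 129 lost the call and 15 gained one; no called result changed sign, while some uncalled ones did. At 50 µM CoCl2 and in TET2KO 2 the count of members called ranged from 30 to 31 over 12 settings and from 27 to 31 over 15. With all libraries kept, it moved by more than 1.5 times in 3 fits. At 10 µM CoCl2 it was 10 when all 14 libraries shared 1 fit, where 796 of 14493 genes were called. In TET2KO 1 it was 14 in that fit, where 3535 genes were called. In the knockout average it was 2 when the 6 knockout libraries shared 1 coefficient, where 256 of 14061 genes were called. The last puts the spread between knockouts into the error, and the cause of the others was not tested. Leaving out 1 library gave 4 to 8 members in TET2KO 1 (4 without WT replicate 1 or TET2KO 1 replicate 2, 5 without TET2KO 1 replicate 1) and 6 to 10 in TET2KO 3 (6 without TET2KO 3 replicate 1). The median in TET2KO 3, 0.0092 on the log2 scale, ran from -0.02773 (without TET2KO 3 replicate 1) to 0.01492 (without WT replicate 2) and was -0.009437 without WT replicate 1. Replicate numbers did not pair samples (correlations of deviations -0.05 to 0.03); with a replicate block 31 members were called at 50 µM, 22 at 10 µM, 24 in the knockout average, 7 in TET2KO 1, 31 in TET2KO 2 and 9 in TET2KO 3. With 2 libraries a group, precision rests on the spread shared across genes.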
